A study of Mus musculus with 6 samples.

Results

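The integrated stress response genes described here were Atf4, Ddit3, Atf3, Trib3, Chac1, Asns, Psat1, Sesn2, Ddit4 and Slc7a11. They were chosen by name, as genes of the ATF4 pathway, and were 10 of the 55341 gene symbols counted in each library. All 10 were found in the 6 count tables. Poly(A) RNA had been sequenced from cultured mouse cerebellar granule neurons (CGNs). There were 3 libraries of vehicle-treated cells (DMSO) and 3 of cells treated with GSK-126, an inhibitor of EZH2, the enzyme that methylates lysine 27 of histone H3. The cells came from the pooled cerebella of CD1-IGS litters at postnatal days 6 to 8. Granule neuron precursors were enriched on Percoll, the mitotic inhibitor AraC was added to all cultures, and the cells were collected after 5 days in vitro. The methods describe separate experiments in which the drug was added on day 1 or on day 3 in vitro, and no label says which of them these libraries are from. Each label named the agent, the source as cerebellum and a replicate from 1 to 3, but neither dose nor day. The comparison asked whether transcripts of this stress pathway changed when EZH2 was inhibited in these cells.

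In the integrated stress response, several kinases sense misfolded protein, amino acid shortage, heme deficiency or viral RNA and phosphorylate the translation factor eIF2. Protein synthesis then slows in general, whereas translation of the Atf4 mRNA rises because of short reading frames upstream of its coding sequence. ATF4 is a bZIP transcription factor that pairs with C/EBP and other bZIP proteins and induces genes for amino acid synthesis and uptake, for redox defence and, when stress persists, for cell death. Because ATF4 is controlled largely in translation, its mRNA level is not a measure of its protein, and the target transcripts are the usual readout at the RNA level.

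ATF4 and C/EBP proteins bind a composite element with the letters TGATGNAA. This motif was searched on both strands in the RefSeq promoter windows of GRCm38.p6, which run from 250 bases before to 50 bases after each start. Windows were found for 10 of the 10 genes, with 11 windows in all because Psat1 has 2. The letters were present in windows of 5 genes, Atf3, Chac1, Trib3, Slc7a11 and Asns, compared with 1304 of all 32851 windows (3.97%). The stretches around these matches are shown because they are the DNA feature by which the pathway's targets are usually recognised. They are written along the strand of the gene, with each match in capitals, and TTGCATCA or TTACATCA is a match read on the other strand.
Atf3: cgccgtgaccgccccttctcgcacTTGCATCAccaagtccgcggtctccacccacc
Chac1: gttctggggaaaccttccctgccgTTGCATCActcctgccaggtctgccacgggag
Trib3: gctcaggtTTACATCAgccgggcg
Slc7a11: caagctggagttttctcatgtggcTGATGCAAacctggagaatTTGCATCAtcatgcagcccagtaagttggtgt
Asns: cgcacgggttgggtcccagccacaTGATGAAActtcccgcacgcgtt

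The Atf3 stretch lies at chr1:191183412-191183467 on the minus strand, with its match 110 bases before a start. The Chac1 stretch lies at chr2:119351025-119351080 on the plus strand, and its match is 193 bases before the start. The Trib3 stretch is at chr2:152344031-152344054 on the minus strand, and its match is 15 bases after the RefSeq start. That start lies upstream of the Trib3 gene as annotated in GENCODE M21, so the match is outside the gene coordinates given for Trib3 here. The Slc7a11 stretch is at chr3:50443629-50443703 on the minus strand and holds a pair of matches, 66 and 47 bases before the start. The Asns stretch is at chr6:7693210-7693256 on the minus strand, with the match 23 bases before the start. The AP-1 letters TGAGTCA were in 1 of the 11 windows, that of Ddit3 at 242 bases before the start, against 1709 of all windows (5.2%), and the cyclic AMP element TGACGTCA was in 0 of 11 against 588 (1.79%). A match is a description of letters, and no match says only that the letters were not in the window.

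The libraries held from 8058760 to 12047837 counts over genes, of which the 10 genes together took from 4907 to 10670. GSK-126 replicate 1 was the deepest. A total of 16343 genes passed the filter on low counts, and all 10 integrated stress response genes were among them. Levels are given as CPM (counts divided by library size) scaled with TMM factors, and a floor of 3 counts corresponded to between 0.249 and 0.372 CPM. Fold changes are on the log2 scale, GSK-126 over DMSO, from the quasi-likelihood test of edgeR, with p-values adjusted over all tested genes. The error after a fold change is its SE, and that after a mean is the SD. The replicate numbers were taken as pairing the libraries, for reasons given with the processing. Estimates from a model with the replicate as a block (the block) are therefore printed next to those with treatment alone. The study's methods define a replicate as a culture from pooled litters, and with treatment alone the p-values measure the spread between such cultures. With the block, differences between replicate numbers are taken out. Those p-values measure how the treatment difference varied between pairs. Markers of other cells were present besides those of granule neurons, and in bulk RNA fewer cells of a type and less RNA per cell cannot be told apart.

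Of the 10 integrated stress response genes, 0 passed an adjusted p of 0.05 with treatment alone, where 0% of all genes did. With the replicate block 0 of the 10 passed, against 3.65% of all genes (2.23% in the higher direction). At an unadjusted p under 0.05 the members numbered 0 with treatment alone and 2 with the block, Atf3 and Slc7a11. Of all 16343 genes tested, 981 reached this with treatment alone and 2735 with the block. DESeq2 called 0 of the 10 with treatment alone. With the block it gave an adjusted p for 9 of them, all but Chac1, and called 1, Atf3, against 3.25% of the genes it tested that were called higher. The CPM of the groups overlapped for all 10, whereas they did not overlap for 10.9% of all genes.

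The fitted differences were positive in 10 of 10 genes with the block, compared with 49.6% of all genes. Related gene lists described below ranged from 12 of 13 bZIP partners positive to 3 of 8 heat shock genes, with 19 of 24 other ATF4 and CHOP targets. The median of the 10 genes was 0.17 on the log2 scale in either fit, and the median of all genes was -0.002. Within the replicate pairs 5 of the 10 were higher with GSK-126 in all 3, namely Ddit3, Atf3, Asns, Sesn2 and Slc7a11, against 19.7% of all genes, and 0 were lower in all 3. The pairs differed in how far the genes stood apart. In pair 1 the 10 genes had a median log2 ratio of 0.40 and 10 were positive, in pair 2 the median was 0.12 with 6 positive, and in pair 3 it was 0.13 with 8 positive. DMSO replicate 1 was the lowest of the 6 libraries for 6 of the genes, DMSO replicate 2 for 3 and DMSO replicate 3 for 1.

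**Figure D1:**
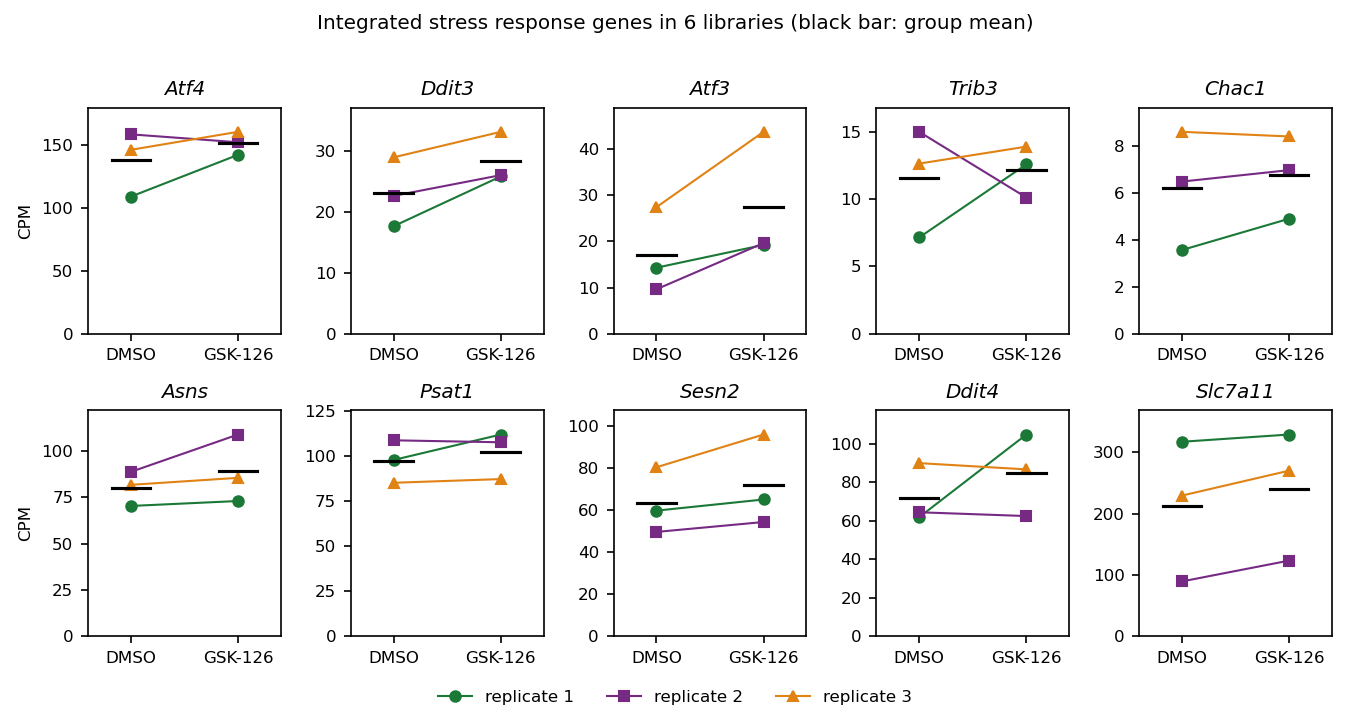
CPM of each integrated stress response gene (vertical axes from 0) with DMSO and with GSK-126, where points are libraries, lines join libraries with the same replicate number and black bars are group means (n = 3). For every gene the groups overlap, and the lines of Ddit3, Atf3, Asns, Sesn2 and Slc7a11 all slope upward.

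Atf4, the transcription factor at the centre of the pathway (chr15:80255184-80257541, plus strand), was present at 109, 159 and 146 CPM in DMSO replicates 1, 2 and 3. It was at 142, 152 and 161 CPM in the GSK-126 replicates, and the group means were 138 ± 25.8 (SD, n = 3) for DMSO and 152 ± 9.17 for GSK-126. DMSO replicate 1 lay below the other 5 libraries, which shared a range of 142 to 161 CPM. With treatment alone the log2 fold change of Atf4 was 0.14 with an SE of 0.16 (edgeR adjusted p = 0.902). With the block it was 0.15 ± 0.12 (adjusted p = 0.566), with a 95% interval from -0.10 to 0.41. Relative to DMSO, Atf4 was higher in pairs 1 and 3 and lower in pair 2.

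Ddit3 encodes CHOP, a bZIP factor induced by ATF4 that promotes cell death in prolonged stress (chr10:127290774-127296288, plus strand). Its DMSO libraries held 17.7, 22.6 and 29.0 CPM and its GSK-126 libraries 25.8, 26.0 and 33.1 CPM. The GSK-126 library was higher in each pair, but DMSO replicate 3 exceeded GSK-126 replicates 1 and 2. Ddit3 had a log2 fold change of 0.31 ± 0.16 (SE) with the block (edgeR adjusted p = 0.349, 95% interval -0.03 to 0.66) and 0.30 ± 0.22 without it (adjusted p = 0.843). The Ddit3 symbol covers 2 gene IDs, and 4.73% of its exon length overlaps genes on the opposite strand, whose reads cannot be told apart because the strand setting of the counting was not stated.

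Atf3, a stress-induced bZIP factor that acts largely as a repressor and is also induced by injury and activity in neurons, had the largest fitted difference of the 10 (chr1:191170296-191218039, minus strand). It was at 14.3, 9.63 and 27.4 CPM with DMSO and at 19.2, 19.6 and 43.7 CPM with GSK-126, from 77 to 384 counts per library. Replicate 3 was the highest in each group, and DMSO replicate 3 lay above GSK-126 replicates 1 and 2. Within the pairs the log2 ratios of Atf3 were 0.42, 1.01 and 0.67. The fitted log2 difference was 0.68 ± 0.44 (SE) with treatment alone (edgeR adjusted p = 0.841). With the block it was 0.70 ± 0.17 (edgeR adjusted p = 0.0521, unadjusted p = 0.00195, 95% interval 0.32 to 1.08). With the block 612 genes had a lower p than Atf3. DESeq2 gave it 0.71 on the log2 scale with the block, at an adjusted p of 0.0459, and an adjusted p of 0.944 with treatment alone.

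Trib3, a pseudokinase induced by ATF4 and CHOP that restrains ATF4 activity and AKT signalling (chr2:152337422-152344032, minus strand), was at 7.15, 15 and 12.6 CPM with DMSO. With GSK-126 it was at 12.6, 10.1 and 13.9 CPM. The pairs went in opposite directions, by 0.80, -0.56 and 0.13 on the log2 scale. Its log2 fold change with the block was 0.12 ± 0.26 (edgeR adjusted p = 0.873). Chac1, which degrades glutathione and is induced by ATF4 with CHOP and ATF3 (chr2:119351229-119354381, plus strand), was at 3.58, 6.5 and 8.63 CPM with DMSO and 4.91, 6.99 and 8.43 CPM with GSK-126. Each Chac1 value rested on 31 to 74 counts. The Chac1 libraries of each number lay close together, replicate 1 lowest and replicate 3 highest in each group. The log2 fold change of Chac1 with the block was 0.16 ± 0.27 (edgeR adjusted p = 0.823, 95% interval -0.42 to 0.75).

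**Figure D2:**
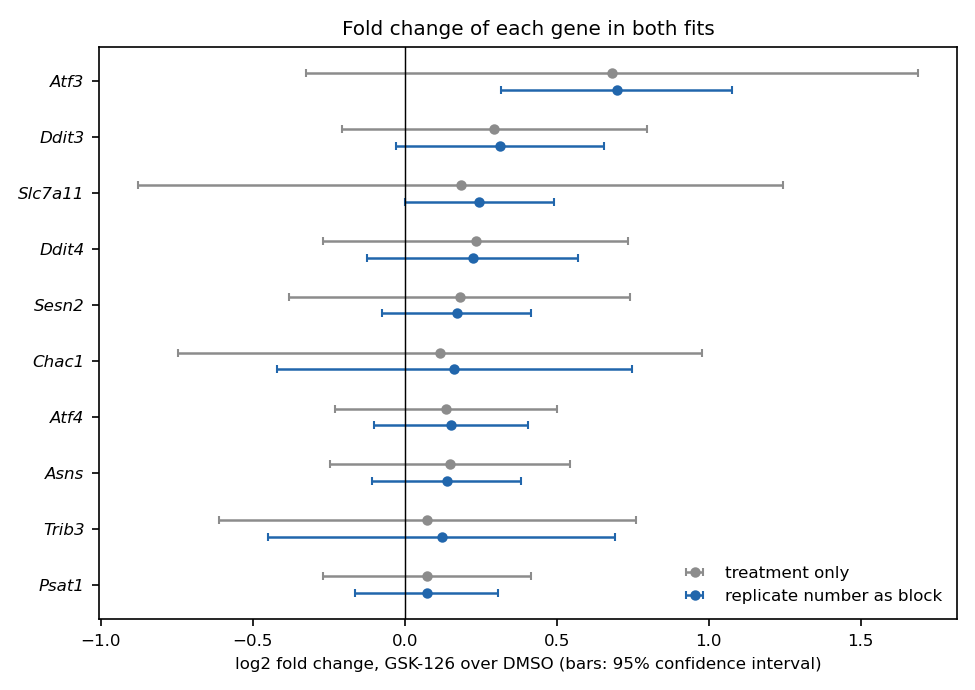
Log2 fold change of each integrated stress response gene, GSK-126 over DMSO, from the edgeR fits with treatment alone (grey) and with the replicate block (blue), with bars for 95% intervals. With the block the intervals of Atf3 and Slc7a11 lie above 0, with no adjustment for the number of genes, and the other 8 cross it.

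A further group serves amino acid supply. Asns encodes asparagine synthetase, a classical ATF4 target (chr6:7675169-7693254, minus strand), and was at 70.4, 88.8 and 81.8 CPM with DMSO and 73.0, 109 and 85.5 CPM with GSK-126. It was higher in every pair, by 0.05, 0.29 and 0.06 on the log2 scale, and the 2 groups overlapped. Asns had a blocked log2 fold change of 0.14 ± 0.11 (edgeR adjusted p = 0.594, 95% interval -0.11 to 0.38). Psat1, an aminotransferase of serine synthesis (chr19:15904678-15947337, minus strand), was at 97.7, 109 and 85.1 CPM with DMSO and 112, 108 and 87.1 CPM with GSK-126. Psat1 had the smallest fitted difference of the 10 with the block, 0.07 ± 0.11 (edgeR adjusted p = 0.804, 95% interval -0.16 to 0.31).

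Slc7a11, the cystine and glutamate exchanger that supplies cysteine for glutathione, is induced by ATF4 and by NRF2 and is well known in astrocytes (chr3:49892526-50443614, minus strand). It was at 317, 89.6 and 230 CPM with DMSO and at 329, 124 and 270 CPM with GSK-126. Replicate number separated the libraries far more than treatment did, with replicate 2 lowest and replicate 1 highest in each group. The log2 ratio within pairs was 0.05, 0.46 and 0.23. With the block the log2 fold change of Slc7a11 was 0.25 ± 0.11 (edgeR adjusted p = 0.297, unadjusted p = 0.0494, 95% interval 7e-04 to 0.49). With treatment alone it was 0.18 ± 0.46 (adjusted p = 0.962), and this interval ran from -0.88 to 1.25.

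A last pair of genes encodes inhibitors of the growth kinase complex mTORC1. Sesn2, a leucine sensor of the sestrin family (chr4:132492032-132510501, minus strand), was at 59.8, 49.6 and 80.4 CPM with DMSO and 65.0, 54.3 and 95.9 CPM with GSK-126. It was higher in each pair, by 0.12, 0.13 and 0.25 on the log2 scale, the most in pair 3. Sesn2 had a blocked log2 fold change of 0.17 ± 0.11 (edgeR adjusted p = 0.494, 95% interval -0.08 to 0.42). Ddit4 encodes REDD1, which is induced by ATF4, hypoxia and glucocorticoids (chr10:59949669-59951834, minus strand). Ddit4 was at 62.0, 64.5 and 90.0 CPM with DMSO and 105, 62.5 and 86.8 CPM with GSK-126. GSK-126 replicate 1 was the highest library, and the other pairs were nearly level, at -0.04 and -0.05 against 0.76 in pair 1. The log2 fold change of Ddit4 with the block was 0.22 ± 0.16 (edgeR adjusted p = 0.532).

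The share of each gene's variation that went with the replicate number was larger than that with treatment in 10 of 10 genes, and in 74.5% of all genes. Replicate number has 2 degrees of freedom and treatment 1. Per degree of freedom the replicate part was the larger in 9 of 10 genes and in 60.4% of all genes. The replicate share was 95.5% of the sum of squares of log2 CPM for Slc7a11, 92.4% for Sesn2 and 90.9% for Chac1, and 33.9% for Trib3, the lowest. Treatment carried from 3.1% for Slc7a11 to 30.6% for Ddit3. In a test of the replicate number in the blocked fit, edgeR called 3 of the 10, Atf3 (adjusted p = 0.00346), Sesn2 (adjusted p = 0.0101) and Slc7a11 (adjusted p = 0.000143), against 11.6% of all genes. This test was added after the data had been seen.

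**Figure D3:**
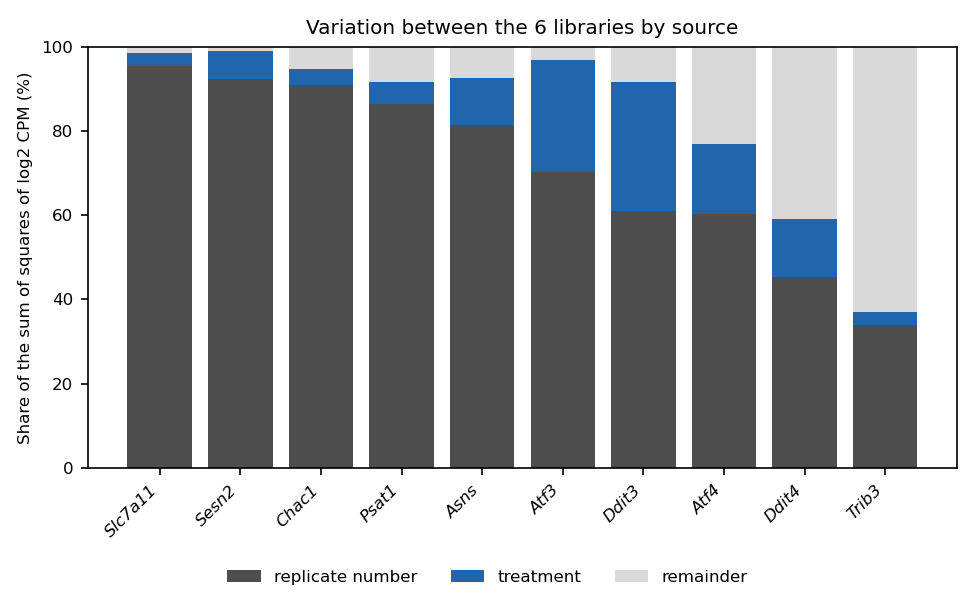
Share of the sum of squares of log2 CPM over the 6 libraries (percent, stacked to 100) that went with the replicate number, the treatment and the remainder, for each integrated stress response gene. The replicate share (2 degrees of freedom) exceeds the treatment share (1) in 10 of 10 genes, as it does in 74.5% of all genes.

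The levels of astrocyte markers moved with the replicate number too. The summed level of 9 astrocyte and Bergmann glia markers was 7208, 2371 and 4307 CPM in DMSO replicates 1, 2 and 3 and 7454, 2484 and 3828 CPM with GSK-126. Slc7a11 had this same order, replicate 1 above 3 above 2, in each group. The log2 range of the replicate means was 1.62 for Slc7a11 and 1.60 for the astrocyte sum. For the granule neuron sum this range was 0.51, and for the other cell types it ran from 0.26 (mural) to 0.76 (microglia). The part of astrocyte content in the Slc7a11 level was not tested.

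**Figure D4:**
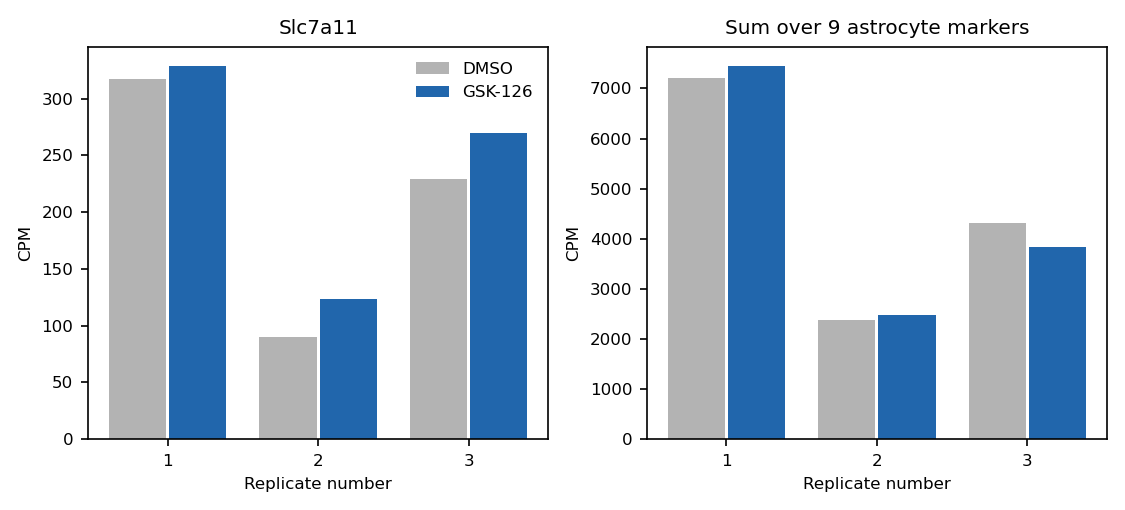
CPM of Slc7a11 (left) and summed CPM of 9 astrocyte and Bergmann glia markers (right) by replicate number, with DMSO in grey and GSK-126 in blue, 1 library per bar. In both panels replicate 1 is highest and replicate 2 lowest in each group.

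Between the treatments, the sums of the mural and of the GABAergic lists did not overlap, and those of the other lists did. The 8 mural cell and fibroblast markers summed to between 7096 and 9449 CPM with DMSO and between 9573 and 10710 CPM with GSK-126. With the block edgeR called 3 of them higher (Pdgfrb, Acta2 and Col1a1) and 0 lower. Of all 16343 genes, 365 were called higher and 232 lower. The 10 granule neuron markers summed to between 4662 and 6197 CPM with DMSO and between 3274 and 4976 CPM with GSK-126. With the block 5 of 10 were called lower and 0 higher. The log2 differences of those 5 were -2.16 (Slc17a7), -1.42 (Gabra6), -1.06 (Etv1), -0.59 (Rbfox3) and -0.58 (Neurod1). Pax6, the 1 positive marker of the 10, was at 0.04. The microglia sum ran from 237.9 to 393.8 CPM with DMSO and from 281.6 to 606.7 CPM with GSK-126, the oligodendrocyte sum from 446.7 to 696.7 and from 515.5 to 827.6, and the endothelial sum from 58.5 to 87.9 and from 64.8 to 84.6. The GABAergic neuron sum was between 198.8 and 265.4 CPM with DMSO and between 176.9 and 197.7 with GSK-126. With the block 1 gene was called higher and 0 lower in each of the astrocyte, oligodendrocyte, microglia and endothelial lists (Gdf10, Cspg4, C1qb and Flt1), and 1 lower and 0 higher in the GABAergic list (Slc32a1). Flt1 had the largest of these log2 differences, 1.33 ± 0.21 (edgeR adjusted p = 0.00838), whereas endothelial Cdh5 was at -0.30 (adjusted p = 0.24). Of the exon length of Slc32a1, 24.9% overlaps an opposite-strand gene. With the block the differences were positive in 6 of 9 astrocyte, 6 of 9 oligodendrocyte and 6 of 8 microglia markers. They were positive in 3 of 5 endothelial and 2 of 7 GABAergic markers tested. Of the markers in these lists, 0 were at zero in every library. Zic1, which granule neurons express strongly, was at 1506 ± 200 CPM (SD, n = 3) with DMSO and 1165 ± 173 CPM with GSK-126. It was not called with the block (edgeR adjusted p = 0.0535). The part of these cell types in the differences of the integrated stress response genes was not tested.

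Levels between genes were compared per kilobase of annotated exon. In the DMSO libraries Atf4 stood at the top with 58.5 ± 10.9 CPM per kilobase (SD, n = 3), followed by Ddit4 with 41.1 ± 8.85, whose range overlapped that of Atf4. Asns followed with 29.4 ± 3.4, Psat1 with 22.8 ± 2.77 and Sesn2 with 18.2 ± 4.51 CPM per kilobase. Slc7a11 had 15.2 ± 8.25, Ddit3 13.5 ± 3.31 and Atf3 7.95 ± 4.28 CPM per kilobase. Trib3, with 5.46 ± 1.90, and Chac1, with 3.81 ± 1.55, were the lowest. Among neighbours in this order, the ranges of the DMSO libraries did not overlap between Ddit4 and Asns or, by a narrow margin, between Asns and Psat1, and all other neighbours overlapped. With GSK-126 the order of the means was the same, from 64.3 ± 3.89 for Atf4 to 4.14 ± 1.08 for Chac1. The annotated exons of Slc7a11 add up to 13922 bases, and a transcript that uses fewer of them would have a higher level per kilobase than given here.

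Upstream of ATF4, the 16 genes of eIF2 control (its kinases, phosphatase subunits and the eIF2 and eIF2B subunits) gave 0 calls in either direction with the block, and their median log2 fold change was 0.05. The lowest p in this list was that of the heme-regulated kinase Eif2ak1, at -0.22 ± 0.12 (edgeR adjusted p = 0.413), and 11.6% of its exon length overlaps genes on the opposite strand. Across all genes 2.23% were called higher with the block. Among 13 bZIP partners and regulators, 1 was called higher and 0 lower with the block, with a median of 0.30. The gene called was Fos, the AP-1 subunit induced by neuronal activity, whose log2 level rose by 0.92 ± 0.14 (edgeR adjusted p = 0.00707). Fos was at 13.8, 30.5 and 26.6 CPM with DMSO and 28.7, 60.9 and 44.2 CPM with GSK-126, so that DMSO replicate 2 exceeded GSK-126 replicate 1. With treatment alone 0 of the genes in these lists was called.

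Downstream, amino acid genes beyond Asns, Psat1 and Slc7a11 gave no call with the block. They comprised 20 cytosolic aminoacyl-tRNA synthetases (median log2 fold change 0.10), 12 amino acid transporters (0.09) and 13 enzymes of serine, one-carbon, proline and sulfur amino acid metabolism (0.17). The seryl-tRNA synthetase Sars had the lowest p of the synthetases, with 161, 155 and 158 CPM in DMSO and 193, 189 and 185 CPM in GSK-126. These 2 groups did not overlap, and the log2 fold change of Sars was 0.26 (edgeR adjusted p = 0.219 with the block). The lowest p of the transporters was that of the cationic amino acid transporter Slc7a1, at 0.32 (edgeR adjusted p = 0.154). That of the enzymes was Aldh1l2, a mitochondrial folate enzyme, at 0.30 (edgeR adjusted p = 0.271), of whose exons 14.1% overlap an opposite-strand gene.

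Of 26 other ATF4 and CHOP targets 24 were tested, with a median log2 fold change of 0.29. With the block 2 rose and 0 fell, against 2.23% of all genes called higher. Pmaip1, which encodes the proapoptotic protein NOXA, rose by 1.10 ± 0.19 (edgeR adjusted p = 0.0109), from 7.38, 8.75 and 23.0 CPM with DMSO to 21.2, 17.1 and 42.0 CPM with GSK-126. Ndrg1, a gene induced by hypoxia and differentiation as well as by ATF4, rose by 0.95 ± 0.16 (adjusted p = 0.0109), from 52.5, 21.1 and 82.0 CPM to 138, 41.2 and 115 CPM, and 8.43% of its exon length overlaps opposite-strand genes. For each of these genes DMSO replicate 3 lay above at least 1 GSK-126 library. With treatment alone the edgeR adjusted p was 0.825 for Pmaip1 and 0.833 for Ndrg1.

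**Figure D5:**
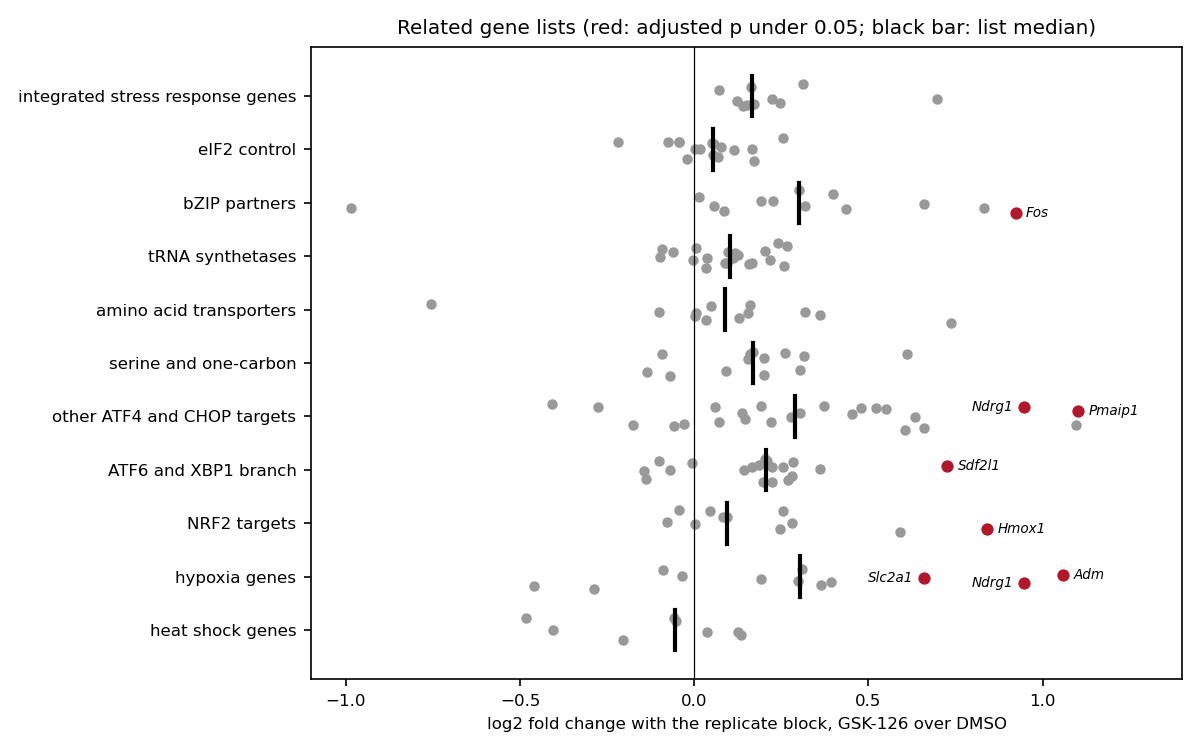
Log2 fold change with the replicate block, GSK-126 over DMSO, of the integrated stress response genes and of related gene lists; each point is a gene (vertical scatter within a list has no meaning), red points had an edgeR adjusted p under 0.05, and black bars are list medians. The integrated stress response genes have a median of 0.17 and no red point.

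Neighbouring stress programs were read in the same way, beside the 2.23% of all genes called higher with the block. Of 20 genes of the ATF6 and XBP1 branch of the ER stress response 1 rose and 0 fell with the block, and the list median was 0.21. Sdf2l1, an ER chaperone cofactor, rose by 0.73 ± 0.17 in log2 terms (edgeR adjusted p = 0.037), from 17.1, 15.3 and 22.1 CPM to 35.1, 22.1 and 33.4 CPM, whereas the chaperone Hspa5 (BiP) was at 0.27 (adjusted p = 0.175). Of 11 NRF2 targets, which include Slc7a11, 1 rose and 0 fell, with a median of 0.09. That gene was Hmox1, heme oxygenase, which rose by 0.84 ± 0.14 (adjusted p = 0.011), from 76.9, 60.8 and 201 CPM to 187, 104 and 280 CPM. Of 12 hypoxia-induced genes 3 rose and 0 fell, with a median of 0.30. They were Adm, a vasodilator peptide, at 1.06 (adjusted p = 0.00461), Ndrg1 and the glucose transporter Slc2a1 at 0.66 (adjusted p = 0.022), of whose exons 2.99% overlap an opposite-strand gene. Of 8 heat shock genes 0 passed in either direction, and the median was -0.06. With treatment alone the edgeR adjusted p was 0.806 for Sdf2l1, 0.841 for Hmox1 and 0.465 for Adm and for Slc2a1.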

How the data were processed

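The 10 genes and the related lists were chosen with earlier results of these data known. The authors deposited whole-number read counts per gene, without normalization or pooling, for each library. According to the labels' processing notes and the study's methods reads were trimmed with Trimmomatic 0.38, aligned to GRCm38 with STAR 2.7.2b and counted per exon-based gene model in HTSeq. The strand setting was not given in the sources used here, and multiply aligned reads were not assigned. Summary entries that name no gene (58.4% to 60.9% of fragments) were left out. Coordinates and exon lengths were taken from GENCODE M21 (GRCm38), in which all 55341 symbols were found, and promoters from RefSeq (GRCm38.p6).

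Low genes were removed with filterByExpr, TMM factors were applied, and edgeR 4.0.16 (quasi-likelihood test, Benjamini-Hochberg, threshold 0.05) was run on the 6 libraries with treatment alone and, as an alternative, with the replicate number as a block. The study's methods name DESeq2 (1.42.0 used here) as the test. Log2 ratios within pairs used a prior count of 2. Scripts were tested on simulated data. Floors cover counting error only.

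For pairing, each library was centred on its group. The correlation over genes was 0.35, 0.50 and 0.52 between libraries that share a number and -0.41 to -0.01 otherwise. With the study's definition of a replicate as a culture from pooled litters, the numbers were taken as pairing the libraries. The methods do not state that DMSO and GSK-126 libraries of the same number shared litters, so the pairing is an assumption. Any 2 libraries differed beyond sampling noise (chi-square divided by its degrees of freedom of at least 10.7). This measure was 25.2, 14.8 and 10.7 between libraries that share number 1, 2 and 3. For number 1 it does not show the pairing. DMSO replicate 1 was nearer to DMSO replicates 2 (24.3) and 3 (18.1) and to GSK-126 replicate 2 (18.5) than to GSK-126 replicate 1. Genes named were the 10, the called members of each list (or the one with the lowest p), and the 3 genes most like Atf4. Hspa5, Zic1, Pax6, Cdh5 and the called cell type markers were named after their values were seen. Fgf21 and Cdsn, which did not pass the filter on low counts, were named outside this rule.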

Additional observations from a re-analysis of the deposited data

How the results depend on the processing

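With treatment alone edgeR called 0 genes of 16343. The count was 597 with the replicate block, 574 with RLE factors and the block, 85 with no filter on low counts, 1136 with no filter and the block, 59 with DESeq2 and 674 with DESeq2 and the block. With treatment alone, 981 genes had an unadjusted p under 0.05. Leaving out libraries gave from 0 to 704, and with the block 704, 178 and 359 without replicates 1, 2 and 3. Of the integrated stress response genes 1, Atf3, was called with no filter and the block (edgeR adjusted p = 0.00602), with DESeq2 and the block, and without replicate 1 in the blocked fit (edgeR adjusted p = 0.0232), so that over the fits that left out libraries the count was 0 to 1. The replicate block by itself changed no call among the 10. The median log2 fold change of the 10 genes ran from 0.11 to 0.33, the highest without DMSO replicate 3.

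Of 160 refits of single genes 145 kept direction and side of the threshold, 3 passed it (Atf3) and 12 reversed sign, all in fits with fewer libraries. Without the block, leaving out 1 library gave log2 fold changes from -0.001 to 0.26 for Atf4 and from -0.17 to 0.31 for Trib3. Over all fits that left out libraries the range was -0.001 to 0.27 for Atf4, -0.21 to 0.48 for Trib3, -0.16 to 0.43 for Chac1, -0.17 to 0.61 for Slc7a11, -0.001 to 0.18 for Psat1, -0.019 to 0.28 for Asns, -0.083 to 0.40 for Sesn2 and -0.049 to 0.44 for Ddit4. Atf3 (0.18 to 1.21) and Ddit3 (0.14 to 0.50) stayed positive in all 16 alternatives. Chac1, with 31 to 74 counts per library, had the widest blocked interval of the 10.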

Other observations

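The genes whose log2 CPM was most like that of Atf4 over the 6 libraries were Doc2a, a calcium sensor of spontaneous transmitter release (Pearson r = 0.994), the noncoding RNA Snhg6 (r = 0.988) and Gm2155 (r = 0.987). Across these libraries 50 genes had an r of at least 0.95 with Atf4, and the points share their libraries and depth. Doc2a was at 12.5, 16.4 and 15.7 CPM with DMSO and 15.5, 16 and 17.1 CPM with GSK-126. Snhg6 was at 7.15, 13.6 and 11.8 CPM with DMSO and 11.7, 12.2 and 12.9 CPM with GSK-126. DMSO replicate 1 was the lowest library for each, as it was for Atf4. Gm2155 rested on 3 to 21 counts per library and is an antisense gene, so its values are uncertain.

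The hormone gene Fgf21, an ATF4 target, did not pass the filter on low counts. It had 1, 2 and 3 counts with DMSO and 11, 11 and 2 counts with GSK-126, so that GSK-126 replicate 3 was within the DMSO range.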
